A study of Mus musculus with 7 samples.

Results

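The genes described here are 10 genes by which the luminal epithelium of the mammary gland is recognized, namely Gata3, Foxa1, Elf5, Ehf, Grhl2, Spdef, Tbx3, Kit, Epcam and Aldh1a3, out of 37074 gene names on the array. The probes were found by the gene name in the scanner output, and the 10 genes had 20 probes among 56605. RNA came from the abdominal mammary gland of nulliparous FVB mice aged 20 to 25 weeks and taken at diestrus, 1 animal per array, from 3 wild-type and 4 PRA transgenic mice. PRA transgenic mice are bigenic. They carry an additional gene for the A form of the progesterone receptor (PRA) behind GAL-4 binding sites, and a GAL-4 transgene, which is driven by the murine cytomegalovirus promoter and not by a promoter specific to the epithelium, activates it. Their glands are labeled preneoplastic and those of the wild-type mice normal, and the lymph nodes had been cut out of all of them. Gland RNA carried Cy5, and the Cy3 channel of every array held the same commercial reference, a pool of RNA from mouse cell lines.

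The luminal layer lines the ducts and alveoli of the mammary gland and contains hormone-sensing cells, which carry the estrogen and progesterone receptors, and progenitor and alveolar cells, which go on to make milk. Gata3 encodes a zinc finger factor needed to form and keep the luminal layer, and Foxa1 a forkhead factor that opens chromatin for the estrogen receptor. Elf5 encodes an ETS factor that drives the alveolar lineage, and Kit, a receptor tyrosine kinase, and Aldh1a3, an enzyme that makes retinoic acid, mark luminal progenitors. Ehf and Spdef encode further epithelial ETS factors, Grhl2 a grainyhead factor that keeps epithelial junctions, Tbx3 a T-box factor needed for the mammary bud, and Epcam the epithelial cell adhesion molecule.

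Of these probes, 3 are shown because the comparisons below turn on them, namely the probe of Epcam, a second probe of Ehf and a second probe of Tbx3. All are 60 bases long and are printed in lower case as the files give them, with positions on mm9.
Epcam, A_52_P447944, plus strand of chromosome 17, 88048972 to 88049800: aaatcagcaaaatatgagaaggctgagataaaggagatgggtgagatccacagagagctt
Ehf, A_55_P2070809, minus strand of chromosome 2, 103114043 to 103114102: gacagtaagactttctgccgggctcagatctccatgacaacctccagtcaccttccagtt
Tbx3, A_55_P2732021, plus strand of chromosome 5, 120132985 to 120133044: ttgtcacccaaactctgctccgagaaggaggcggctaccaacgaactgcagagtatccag
No annotation of mm9 was used here, so the exons that the probes lie in are not given. The positions of the Epcam probe span more of the genome than its 60 bases.

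Upstream sequence is shown for Elf5 and Kit, whose Cy5 signals had r = 0.93 across the animals, and for Foxa1, which had r = -0.83 with Elf5. Neither relation had an adjusted p under 0.05 (exact permutation). In the log2 ratio r was -0.88 for Elf5 and Kit. For Foxa1 and Elf5 in Cy5 it was -0.09 without the 2 arrays farthest from the median of Foxa1. Each run is the 250 bases before a transcription start site of RefSeq on GRCm38.p6, written 5′ to 3′ on the strand of the gene. Both strands were searched for a short motif of each of 5 families of factors, spelled out after the sequences, and capitals mark the matches.
Elf5, upstream start, chr2:103411848-103412097, plus strand: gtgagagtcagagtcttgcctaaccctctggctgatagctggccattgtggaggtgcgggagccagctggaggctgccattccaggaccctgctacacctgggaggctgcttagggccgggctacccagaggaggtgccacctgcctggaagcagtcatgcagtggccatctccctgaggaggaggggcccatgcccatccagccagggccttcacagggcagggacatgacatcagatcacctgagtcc
Elf5, downstream start, chr2:103423818-103424067, plus strand: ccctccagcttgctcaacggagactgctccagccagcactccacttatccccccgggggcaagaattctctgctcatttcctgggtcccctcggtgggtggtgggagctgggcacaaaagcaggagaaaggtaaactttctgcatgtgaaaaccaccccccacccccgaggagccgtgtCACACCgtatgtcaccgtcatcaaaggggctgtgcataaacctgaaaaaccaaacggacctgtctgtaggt
Kit, chr5:75574737-75574986, plus strand: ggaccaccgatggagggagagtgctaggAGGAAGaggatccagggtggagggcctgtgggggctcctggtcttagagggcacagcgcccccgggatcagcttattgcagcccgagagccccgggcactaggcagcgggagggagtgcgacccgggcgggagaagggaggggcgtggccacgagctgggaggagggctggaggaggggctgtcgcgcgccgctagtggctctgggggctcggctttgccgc
Foxa1, chr12:57546112-57546361, minus strand: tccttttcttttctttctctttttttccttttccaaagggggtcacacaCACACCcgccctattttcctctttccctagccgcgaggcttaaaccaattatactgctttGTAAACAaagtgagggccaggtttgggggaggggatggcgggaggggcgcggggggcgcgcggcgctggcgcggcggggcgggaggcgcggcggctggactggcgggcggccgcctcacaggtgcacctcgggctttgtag
The upstream start of Elf5 held none of the 5 motifs. Its downstream start held the T-box motif GGTGTG, which was found in 16.3% of 32851 promoter windows of the same length. The window of Kit held the ETS motif AGGAAG, found in 29.5% of all windows. The window of Foxa1 held the T-box motif and the forkhead motif TGTTTAC, of which the latter was found in 3.17% of all windows. None of these 4 windows held the GATA motif AGATAA, found in 9.99% of all windows. The grainyhead motif AACCNGTT, found in 1.79% of all windows, was likewise in none of them. These motifs do not overlap in the windows shown, and a match describes the letters only.

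The log2 ratio is the log2 of the processed Cy5 over the processed Cy3 signal of a spot, so it gives the gland over the reference. Cy5 alone is the log2 of the processed Cy5 signal minus the 75th percentile of that array, and Cy3 alone is the same for the reference. The brightest probe in Cy5 stands for a gene, and levels are compared between animals only, not between genes, because each probe has its own brightness. Of the 20 probes, 19 were kept because the scanner software called Cy5 well above background on every array of 1 or both genotypes. The probe left out was 1 of 3 for Aldh1a3, and the brightest probe of every gene was well above background in Cy5 on all 7 arrays. Saturation was flagged at 0 spots. The precision is limited by the number of arrays.

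The glands carried the epithelium that these genes describe. All 17 genes of a luminal epithelium list were kept, and the keratin genes Krt8 and Krt18, which encode the intermediate filaments of luminal cells, were well above background in Cy5 on all 7 arrays. The adipocyte genes Adipoq and Plin1 and the basal genes Krt5 and Trp63 were too, since the samples are whole glands with fat and stroma. In such bulk samples fewer luminal cells and less RNA per luminal cell cannot be told apart. All arrays lay on 1 slide, with the wild-type arrays in one row and the PRA transgenic arrays in the other, and the effects of the row and of the genotype cannot be told apart either. Among all probes Cy5 was well above background for 62.7% to 66.2% on the wild-type arrays and for 56.7% to 60.2% on the PRA transgenic arrays. Cy3 was well above background for 53.2% to 54% on the wild-type arrays and for 47.2% to 50.6% on the PRA transgenic arrays.

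For none of the 10 genes did the test separate the genotypes from the spread of the animals. In the log2 ratio 7 genes had a lower and 3 a higher mean in PRA transgenic glands, against 45.8% of all 34288 probes with a change below 0. The count with an adjusted p under 0.05 was 0 of 10 (limma, Benjamini-Hochberg over all probes), against 0.0117% of all probes, or 4. At an unadjusted p under 0.05 the count was also 0 by limma and by the methods' t-test, against 9.02% of all probes by limma. The 2 genotypes overlapped for all 10 genes, while 9.94% of all probes did not overlap and 4.52% lay lower without overlap in PRA transgenic glands. The median log2 fold change of the 10 genes was -0.273, against 0.024 over all probes tested. In Cy5 alone the counts were 0 of 10 as well, adjusted and unadjusted, against 0.0146% and 8.89% of all probes, and without overlap 0 against 9.75%. The median of the 10 genes in Cy5 alone was -0.049, against 0.014 over all probes. Without wild-type replicate 2 the count at an unadjusted p under 0.05 was 2 (Spdef and Epcam), against 7.35% of all probes in that fit. Without PRA transgenic replicate 4 it was also 2 (Kit and Aldh1a3), against 12.3% of all probes.

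**Figure D1:**
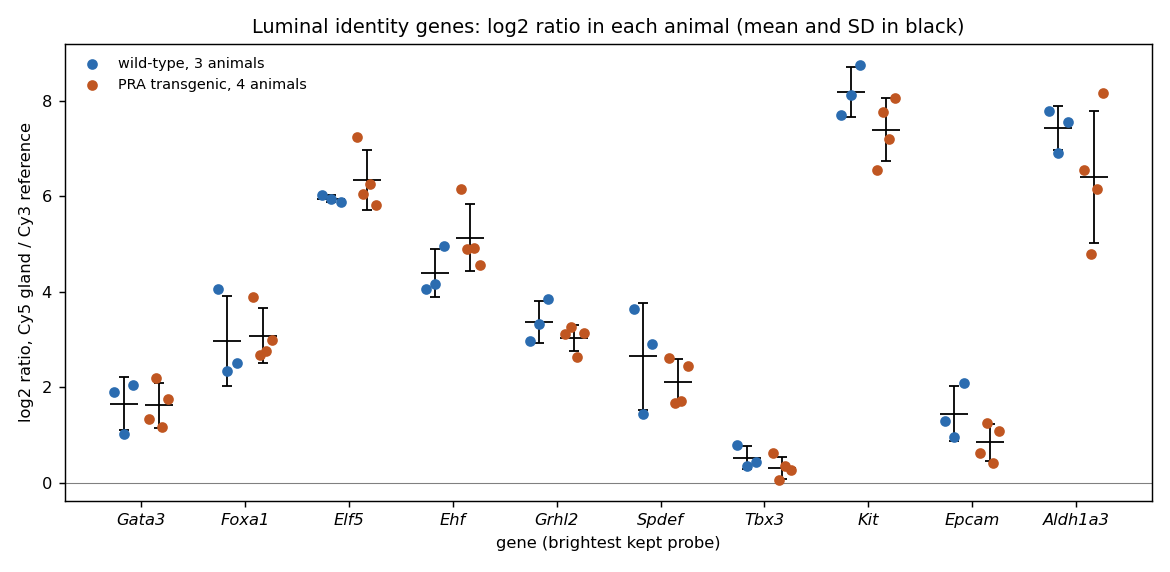
The log2 ratio of gland over reference (vertical axis, log2 units) of the 10 genes in each animal, with wild-type animals in blue and PRA transgenic animals in orange and the mean and SD of each genotype in black. The points of both genotypes overlap for every gene, and the 3 wild-type animals lie close together for Elf5, between 5.87 and 6.03.

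Gata3 and Foxa1, the factors most tied to the hormone-sensing lineage, had means that differed little beside the spread of the animals, and the sign of both differences depended on single arrays. The log2 ratio of Gata3 (A_55_P2736969, chr2:9779495-9779554 of mm9) was 1.91, 1.03 and 2.05 in wild-type replicates 1 to 3 and 1.33, 2.20, 1.16 and 1.76 in PRA transgenic replicates 1 to 4. High and low animals occurred in both genotypes. The difference, PRA transgenic minus wild-type, was -0.05 on the log2 scale (standard error 0.33, 95% confidence interval -0.83 to 0.74, adjusted p = 0.986), and it ranged from -0.36 to 0.15 when 1 array was left out. In Cy5 alone it was -0.01, and the reference varied by an SD of 0.05 for this probe, so the spread between animals lay in the gland channel.

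The log2 ratio of Foxa1 (A_55_P2053933, chr12:58641764-58641823) was 4.06, 2.34 and 2.50 in the wild-type animals and 3.90, 2.67, 2.76 and 2.99 in the PRA transgenic animals. Wild-type replicate 1 and PRA transgenic replicate 1 stood above the other 5 animals, which lay between 2.34 and 2.99. The log2 fold change was 0.11 (standard error 0.48, interval -1.03 to 1.25, adjusted p = 0.973). It was 0.66 without wild-type replicate 1 and -0.20 without wild-type replicate 2. In Cy5 alone the same 2 animals had 2.32 and 2.29 and the rest 0.59 to 1.29. Spdef (A_55_P2007249, chr17:27851401-27851460) had log2 ratios of 3.63, 1.44 and 2.90 in the wild-type animals and 2.62, 1.67, 1.71 and 2.45 in the PRA transgenic animals. Wild-type replicate 1 was again highest, and wild-type replicate 2 was the lowest of all 7. The log2 fold change was -0.54 (standard error 0.52, interval -1.76 to 0.68, adjusted p = 0.809), and it was -0.05 without wild-type replicate 1 and -1.15 without wild-type replicate 2. The T cell list, with Cd3e as its brightest gene, had a mean Cy5 of 0.88 in wild-type replicate 1 and of -1.47 to -0.94 in the other 6 animals, and its part in these values was not tested. In PRA transgenic replicate 1, where Foxa1 was also high, the T cell list was at -1.10.

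Tbx3 had the narrowest range of the 10 genes, in the ratio and in Cy5. Its log2 ratio at the brightest probe (A_55_P1969002, chr5:120134511-120134570) was 0.80, 0.36 and 0.44 in the wild-type animals and 0.62, 0.06, 0.35 and 0.26 in the PRA transgenic animals. The range over the 7 animals was 0.74, or 1.67-fold, and the means differed by -0.21 (standard error 0.18, interval -0.63 to 0.21, adjusted p = 0.778). The second probe, printed above, had Cy5 values of -0.63, -1.23 and -1.07 in the wild-type animals and -1.09, -1.62, -1.60 and -1.49 in the PRA transgenic animals. Only PRA transgenic replicate 1 overlapped with the wild-type range. Its change in Cy5 was -0.47 (interval -0.93 to -0.01, adjusted p = 0.553), the only one of the 19 kept probes of the 10 genes with an unadjusted p under 0.05 in Cy5, against 8.89% of all probes. In the log2 ratio the same probe changed by -0.38 (interval -0.92 to 0.16). The brightest probe changed by -0.06 in Cy5 and by 0.15 in Cy3 (interval 0.03 to 0.27), so most of its difference in the ratio lay in the reference channel.

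In Cy5 the ETS genes Elf5 and Ehf had the widest ranges of the 10 genes, and each genotype held both high and low animals. The Cy5 signal of Elf5 (A_51_P455866, chr2:103290958-103291017) was 1.52, 3.10 and 4.58 in the wild-type animals and 1.69, 4.25, 2.77 and 3.78 in the PRA transgenic animals. This is an 8.37-fold range, with the highest and the lowest animal both wild-type. In intensity, before scaling to the percentile, it was 1270 in wild-type replicate 1 and 9790 in wild-type replicate 3. The difference between genotypes in Cy5 was 0.06 (standard error 0.83, interval -1.88 to 1.99, adjusted p = 0.993). The log2 ratio of the same spots was 6.03, 5.95 and 5.87 in the wild-type animals and 7.23, 6.04, 6.26 and 5.82 in the PRA transgenic animals. The 3 wild-type animals, so far apart in Cy5, were within 0.16 of each other in the ratio, which leaves the change in the ratio at 0.39 (standard error 0.32, interval -0.37 to 1.15, adjusted p = 0.772). Without PRA transgenic replicate 1 it was 0.09, and the Cy3 intensity behind the ratio of 7.23 on that array was 8.50, against 19.3 to 168 on the others. Cy3 was well above background on 5 of the 7 arrays.

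For Ehf (A_66_P109519, chr2:103106827-103106886) the Cy5 signal was 0.27, 0.43 and 2.93 in the wild-type animals and 0.45, 2.81, 1.62 and 1.62 in the PRA transgenic animals. Wild-type replicate 3 and PRA transgenic replicate 2 were the highest, as for Elf5. The log2 ratio was 4.05, 4.16 and 4.96 in the wild-type animals and 6.14, 4.89, 4.92 and 4.56 in the PRA transgenic animals. The change was 0.74 in the ratio (standard error 0.41, interval -0.22 to 1.70, adjusted p = 0.648) and 0.41 in Cy5 (standard error 0.76). Without PRA transgenic replicate 1 the change in the ratio was 0.40, and on that array the Cy3 intensity behind the ratio was 7.66, against 32.4 to 100 on the others. Cy3 was well above background on 6 of the 7 arrays. At the other 3 probes of Ehf the 2 highest animals in Cy5 were the same, and the probe printed above had 1.38 and 1.58 in these 2 animals and -1.16 to 0.40 in the others. In the ratio 1 of the 3, A_55_P2804604, went the other way, with a change of -0.46 (standard error 0.76), as did the second probe of Elf5, A_66_P110351, with -0.52 (standard error 0.61). On these 2 probes Cy3 was well above background on no array, as it was on A_52_P609918 of Ehf, which changed by 0.44. The second probe of Elf5 was kept through the wild-type arrays, since its Cy5 was well above background on 2 of the 4 PRA transgenic arrays. Ehf and Elf5 lie on the same chromosome, with 171208 bases between their nearest probes on mm9.

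**Figure D2:**
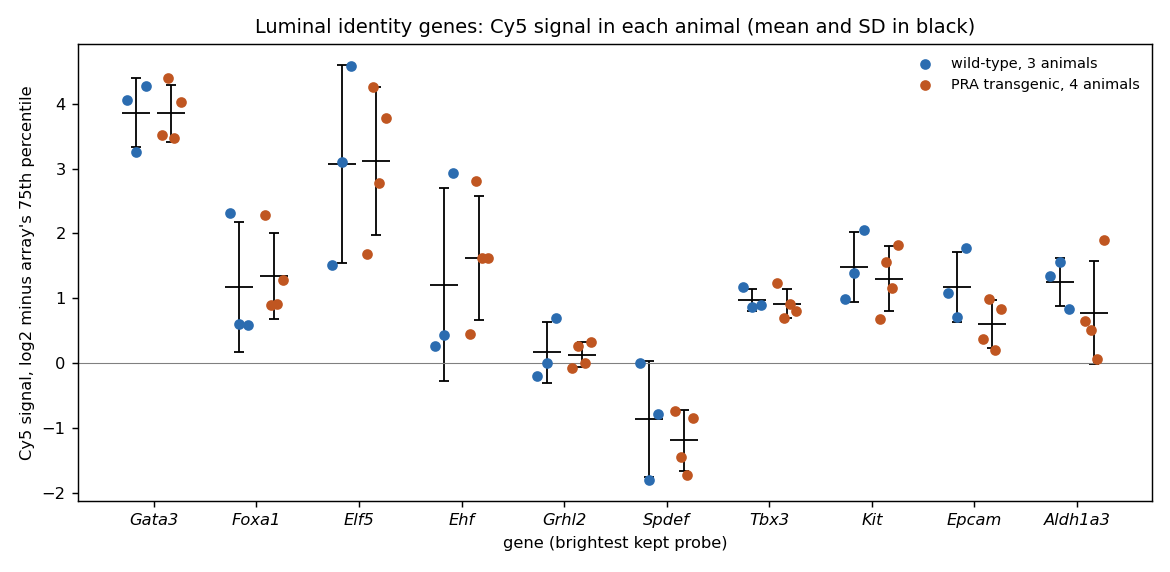
Cy5 signal of the gland alone (vertical axis, log2 minus the 75th percentile of the array) of the 10 genes in each animal, with wild-type in blue, PRA transgenic in orange and the mean and SD in black. Elf5 and Ehf spread over 3.06 and 2.66 log2 units and Tbx3 over 0.54, and both genotypes overlap for every gene.

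Grhl2 (A_55_P1981322, chr15:37293139-37293198) had Cy5 values of -0.20, 0.01 and 0.70 in the wild-type animals and -0.07, 0.27, 0.00 and 0.33 in the PRA transgenic animals. Wild-type replicate 3 was highest, as for Elf5, Ehf and Kit, but the range was 1.86-fold. The change was -0.04 in Cy5 (standard error 0.23) and -0.34 in the log2 ratio (standard error 0.24, interval -0.91 to 0.24, limma adjusted p = 0.735). The Cy3 signal at this probe had a mean of -3.18 on the wild-type and of -2.88 on the PRA transgenic arrays. The second kept probe, A_51_P408821, changed by 0.24 in Cy5, by -0.42 in the ratio and by 0.66 in Cy3. Its Cy3 was well above background on no array. It was kept through the wild-type arrays, since its Cy5 was well above background on 2 of the 4 PRA transgenic arrays.

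Kit had the lowest adjusted p of the 10 genes in the ratio, 0.617, and most of that difference lay in the reference channel. Its log2 ratio (A_66_P128434, chr5:76052394-76052453) was 7.69, 8.11 and 8.75 in the wild-type animals and 6.55, 7.77, 7.20 and 8.05 in the PRA transgenic animals, a change of -0.79 (standard error 0.40, interval -1.74 to 0.16). The Cy5 signal was 0.99, 1.39 and 2.05 in the wild-type animals and 0.68, 1.56, 1.16 and 1.82 in the PRA transgenic animals, a change of -0.18 (standard error 0.34, adjusted p = 0.921). The Cy3 signal was well above background on no array, and there it was higher on all 4 PRA transgenic arrays, from -6.22 to -5.84, than on the wild-type arrays, from -6.70 to -6.67. The difference in Cy3 was 0.61 (standard error 0.10, limma adjusted p = 0.0597). It was not particular to Kit. Among other probes with Cy3 well above background on no array, A_51_P408821 of Grhl2 changed by 0.66 in Cy3 at the same adjusted p, and A_52_P609918 of Ehf by -0.39. The other 2 probes of Kit were the only ones of the 19 kept probes of the 10 genes with an unadjusted p under 0.05 in the ratio, against 9.02% of all probes. For A_55_P2935231 the change was -0.92 in the ratio (adjusted p = 0.492), -0.30 in Cy5 and 0.62 in Cy3. For A_55_P2935232 it was -2.15 in the ratio (adjusted p = 0.421), without overlap of the genotypes (9.94% of all probes did not overlap), -0.12 in Cy5 and 2.03 in Cy3, where it was well above background on 1 array. Kit is also a gene of mast cells, whose list had mean Cy5 values of 0.18, -0.59 and -1.32 in the wild-type animals and -1.34, -1.13, -0.72 and 0.36 in the PRA transgenic animals, with Mcpt4 as its brightest gene. Wild-type replicate 3, the highest animal for Kit in Cy5, was among the lowest for this list, and PRA transgenic replicate 4, the second highest for Kit, was the highest for it. The part of mast cells in the values of Kit was not tested.

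Aldh1a3 also differed more in the ratio than in Cy5. The Cy5 signal of its brightest probe (A_52_P87843, chr7:73535785-73535844) was 1.34, 1.56 and 0.84 in the wild-type animals and 0.65, 0.51, 0.07 and 1.90 in the PRA transgenic animals. Of the PRA transgenic animals 3 were below all wild-type animals and replicate 4 was above them. The change was -0.46 in Cy5 (standard error 0.42, adjusted p = 0.792) and -1.01 in the log2 ratio (standard error 0.71, interval -2.69 to 0.67, adjusted p = 0.728). In the ratio it was -0.47 without PRA transgenic replicate 2 and -1.59 without PRA transgenic replicate 4. Its Cy3 signal was well above background on no array and changed by 0.55 (standard error 0.57), with overlap of the genotypes and the highest value, -4.25, in PRA transgenic replicate 2. The second kept probe, A_52_P113518, changed by -0.39 in Cy5 and by -0.89 in the ratio.

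For Epcam the ratio and Cy5 gave nearly the same difference. Its log2 ratio at the probe printed above was 1.30, 0.97 and 2.09 in the wild-type animals and 0.63, 1.26, 0.42 and 1.09 in the PRA transgenic animals. The PRA transgenic animals were lower on average, but replicates 2 and 4 lay within the wild-type range. The change was -0.60 in the ratio (standard error 0.32, interval -1.35 to 0.15, adjusted p = 0.632) and -0.58 in Cy5 (standard error 0.29, interval -1.27 to 0.11, adjusted p = 0.618). The difference in the ratio was -0.28 without wild-type replicate 3 and -0.84 without wild-type replicate 2. The reference was well above background on all arrays for this probe and varied by an SD of 0.04.

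**Figure D3:**
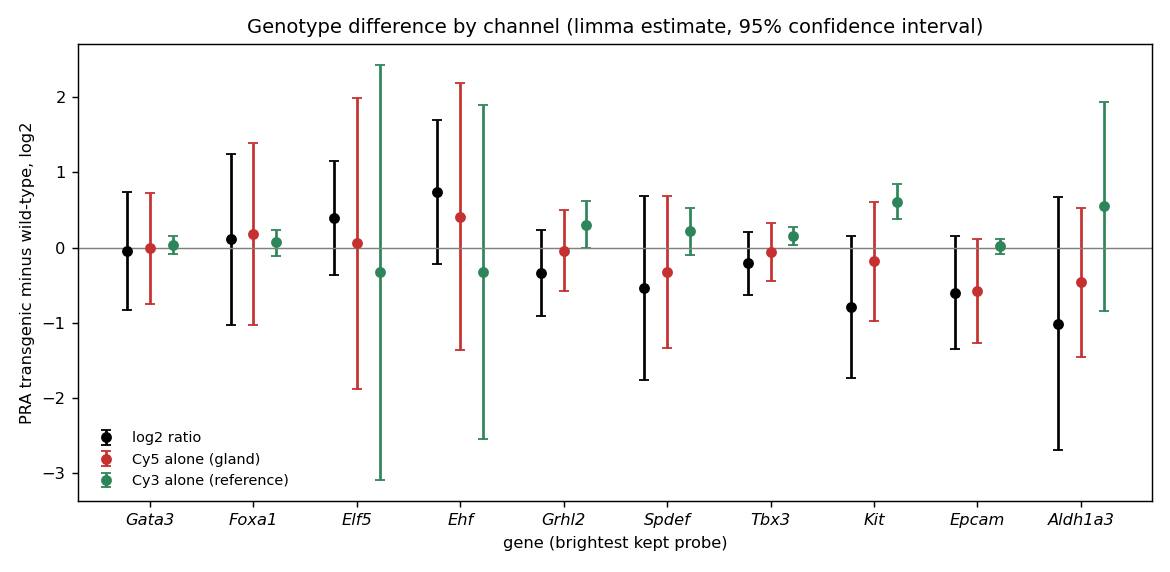
Difference PRA transgenic minus wild-type (vertical axis, log2 units) for each gene in the log2 ratio (black), in Cy5 alone (red) and in Cy3 alone (green), with the 95% confidence interval of limma. The intervals of the ratio and of Cy5 include 0 for all 10 genes. The Cy3 interval of Kit runs from 0.38 to 0.85 and that of Tbx3 from 0.03 to 0.27.

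The reference is the same RNA on every array, and its signal was steady at most probes. Over 25209 kept probes with Cy3 well above background on all arrays, the median SD of Cy3 was 0.079 and that of Cy5 0.225. Gata3, Foxa1, Grhl2, Tbx3 and Epcam were well above background in Cy3 on all 7 arrays, with SDs of Cy3 between 0.04 (Epcam) and 0.23 (Grhl2). At Elf5 the SD of Cy3 was 1.54 and at Ehf 1.25. At Elf5 the Cy3 signal followed the Cy5 signal of the same spot over the 7 arrays (r = 0.97), from -5.51 in PRA transgenic replicate 1 to -1.26 in wild-type replicate 3. Its Cy3 signal amounted to 1.53%, 1.62% and 1.71% of the Cy5 signal on the wild-type arrays and to 0.668%, 1.52%, 1.3% and 1.78% on the PRA transgenic arrays. At Ehf r was 0.84, and over all kept probes the median r was 0.25 and 3.12% had an r of 0.9 or more. A log2 ratio of such a probe can hold still while its Cy5 signal varies, and what made the Cy3 signal vary was not tested.

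**Figure D4:**
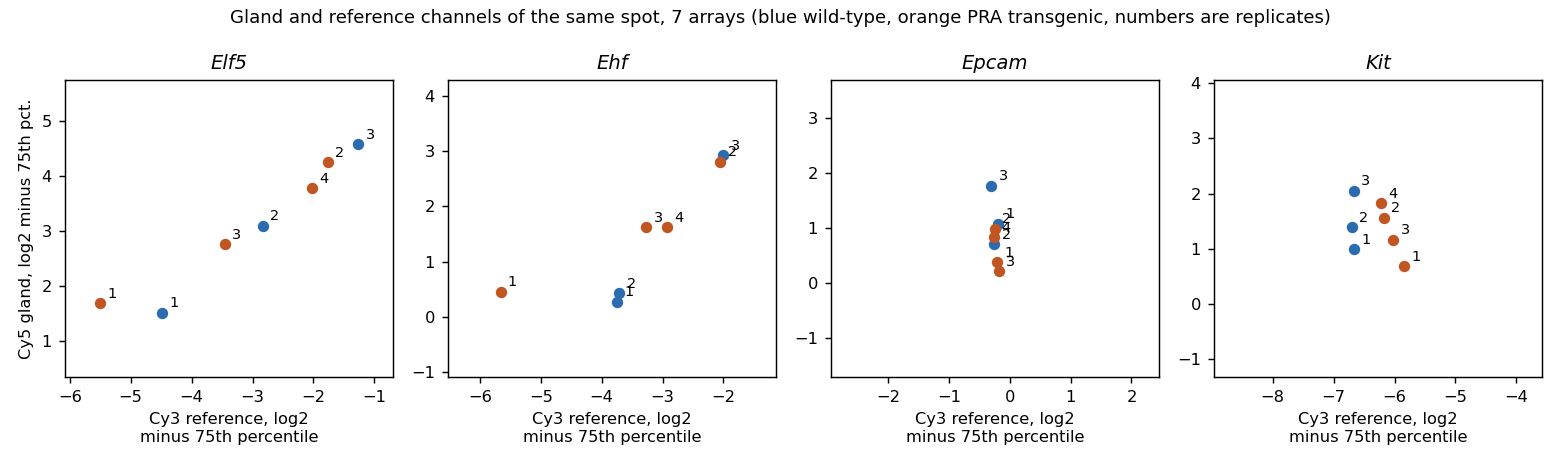
Cy5 signal of the gland against the Cy3 signal of the reference at the same spots (log2 minus the 75th percentile, all panels on equal spans) for Elf5, Ehf, Epcam and Kit, with 1 point per array, blue for wild-type and orange for PRA transgenic, and numbers for the replicates. Elf5 runs along a rising line, Epcam varies in Cy5 alone, and the 4 PRA transgenic points of Kit lie to the right of the 3 wild-type points.

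In Cy3 alone 2 of the 10 genes had an unadjusted p under 0.05 (Kit and Tbx3) and 0 an adjusted p under 0.05, against 10.4% and 0.00292% of all probes. The median change in Cy3 was 0.109 for the 10 genes, against -0.002 over all probes tested. Over the 3641 kept probes with Cy3 well above background on no array, as for Kit and Aldh1a3, the median change was 0.184 in Cy3, -0.056 in Cy5 and -0.211 in the log2 ratio. Over the kept probes with Cy3 well above background on all arrays the medians were 0 in Cy3 and 0.024 in the ratio. For the 5 genes with Cy3 well above background on all arrays the median log2 fold change was -0.21, between -0.60 (Epcam) and 0.11 (Foxa1).

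Some pairs of the genes had a high correlation across the animals in Cy5. Of the 45 pairs, 6 had a Pearson r of 0.8 or more, and all of them but Foxa1 with Tbx3 were among Elf5, Ehf, Grhl2 and Kit. The share of all probe pairs with such an r was not computed, in Cy5 or in the ratio. The counts of pairs therefore do not show that these genes are unusual. Elf5 and Kit had r = 0.93 (exact permutation p = 0.00496, adjusted over 45 pairs 0.0804; Spearman rho = 0.93, exact p = 0.00675, adjusted 0.101), and r was 0.92 without the 2 arrays farthest from the median of Elf5. Elf5 and Grhl2 had r = 0.91 (exact permutation p = 0.00139, adjusted 0.0626; rho = 0.96, exact p = 0.00278, adjusted 0.0626; 0.89 without the 2 arrays). Elf5 and Ehf had r = 0.88 (exact permutation p = 0.0115, adjusted 0.104; rho = 0.89, exact p = 0.0123, adjusted 0.138; 0.78 without the 2 arrays). Foxa1 and Tbx3 had r = 0.84 (exact permutation p = 0.0341, adjusted 0.192, and rho = 0.54, exact p = 0.236, adjusted 0.531). This rests on the 2 arrays farthest from the median of Foxa1, since r was -0.32 without them. Elf5 and Tbx3 ran opposite to each other with r = -0.87 (exact permutation p = 0.0145, adjusted 0.109, and rho = -0.75, exact p = 0.0663, adjusted 0.271). Here r was -0.97 without the 2 arrays farthest from the median of Elf5. Elf5 and Foxa1 had r = -0.83 (exact permutation p = 0.031, adjusted 0.192, and rho = -0.82, exact p = 0.0341, adjusted 0.256). Without the 2 arrays farthest from the median of Foxa1, r was -0.09. No pair had an adjusted p under 0.05 in Cy5 or in the ratio. In the log2 ratio the sign for Elf5 and Kit was the opposite, r = -0.88 (exact permutation p = 0.00278, adjusted 0.125, and rho = -0.86, exact p = 0.0238, adjusted 0.536). Without the 2 arrays farthest from the median of Elf5 in the ratio, r was -0.68. Within a genotype, which is also a slide row, 3 and 4 arrays were too few to give these values. The sign also differed between Cy5 alone and the ratio for Elf5 with Grhl2 (-0.3 in the ratio), with Tbx3 (0.38) and with Foxa1 (0.57). In the ratio 3 pairs had r of 0.8 or more. They were Elf5 with Ehf (0.84), Grhl2 with Epcam (0.85) and Kit with Epcam (0.82). Without the 2 arrays farthest in the ratio from the median of the gene named first, these were -0.28, -0.12 and 0.63.

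**Figure D5:**
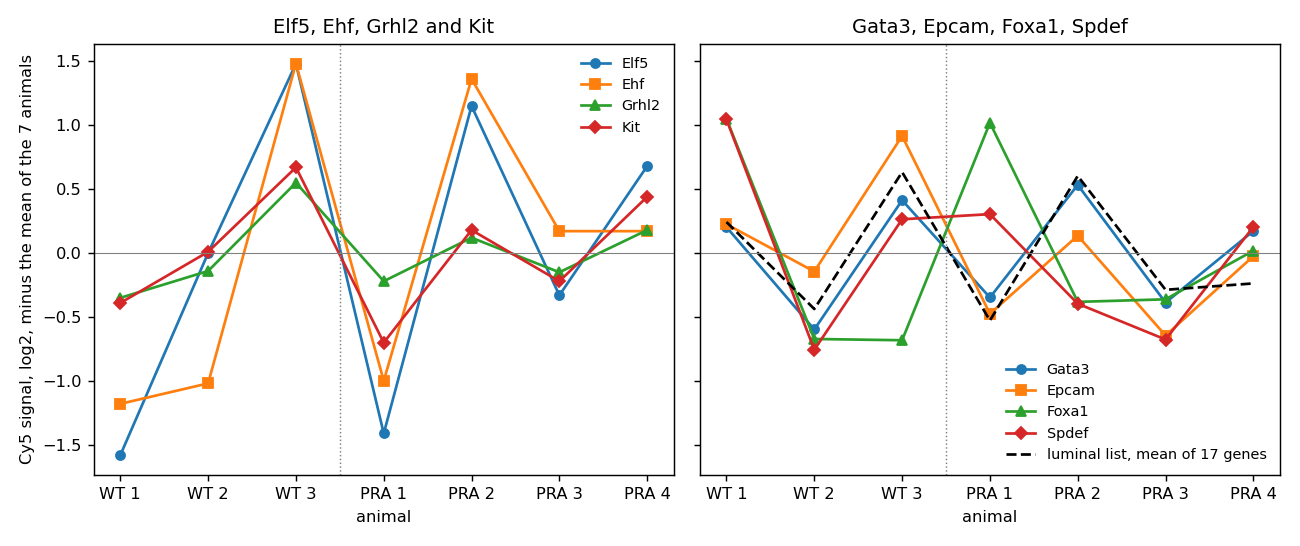
Cy5 signal of 8 of the genes in each animal, minus the mean of the 7 animals (vertical axis, log2 units), with the mean of 17 luminal epithelium genes as a dashed line on the right and a dotted line between the genotypes. Elf5, Ehf, Grhl2 and Kit all peak in wild-type replicate 3, Foxa1 is high in wild-type replicate 1 and PRA transgenic replicate 1, and Gata3 and Epcam run close to the luminal list.

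The luminal epithelium list itself had mean Cy5 values of 1.53, 0.85 and 1.92 in the wild-type animals and 0.76, 1.89, 1.00 and 1.05 in the PRA transgenic animals. Wild-type replicate 3 and PRA transgenic replicate 2 were highest. Gata3 followed the list with r = 0.89 (exact permutation p = 0.0196, adjusted over the 10 genes 0.098; rho = 0.86, exact p = 0.0238, adjusted 0.119; 0.76 without the 2 arrays farthest from the median of the list). Epcam followed it with r = 0.81 (exact permutation p = 0.0155, adjusted 0.098; rho = 0.86, exact p = 0.0238, adjusted 0.119; 0.71 without these 2 arrays). Ehf had r = 0.72 with the list (exact permutation p = 0.081, adjusted 0.27; rho = 0.61, exact p = 0.167, adjusted 0.334), which rests on 2 arrays, since r was -0.13 without them. Foxa1 had r = -0.26 (exact permutation p = 0.544, adjusted 0.63; rho = -0.36, exact p = 0.444, adjusted 0.555; 0.39 without the 2 arrays). None of the 10 relations had an adjusted p under 0.05. Expressed relative to the mean of this list on each array, a scaling chosen after seeing the data that shifts every log2 fold change by 0.15, Epcam changed by -0.45, Kit by -0.63, Ehf by 0.89 and Gata3, which the shift takes past 0, by 0.11, all with an adjusted p of 0.996. The adipocyte list, with Fabp4 as its brightest gene, was lowest in the 2 animals in which the luminal list was highest, with mean Cy5 values of 5.53 and 5.40 against 5.76 to 6.41 in the others. The part of tissue makeup in the gene values was not tested.

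The other epithelial genes were read from the same fit. Of the 17 genes of the luminal epithelium list 1 was higher and 0 lower at an unadjusted p under 0.05, against 4.54% and 4.48% of all probes, and 0 passed the adjustment. The median log2 fold change was -0.21. The gene with p under 0.05 was Cldn3, a tight junction claudin, with log2 ratios of 4.57, 4.42 and 4.57 in the wild-type animals and 4.79, 4.98, 4.92 and 5.02 in the PRA transgenic animals (log2 fold change 0.41, standard error 0.11, adjusted p = 0.412). In Cy5 its change was -0.51, opposite in sign to the ratio. Muc1, a mucin of the luminal surface, had the largest negative value, -0.79 (standard error 0.84).

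Of 23 other epithelial transcription and splicing regulators 21 were tested, and 0 had an unadjusted p under 0.05 in either direction by limma, in the ratio (against 9.02% of all probes) and in Cy5 (against 8.89%). Their median log2 fold change was -0.18, and -0.01 in Cy5. The highest value was that of Esrp2, a regulator of epithelial splicing, at 0.49 (standard error 0.39), and the lowest that of Tfap2c, a factor of the AP-2 family, at -0.94 (standard error 0.63) in the ratio and -0.02 in Cy5. Of 7 genes linked to hormone-sensing cells 5 were tested, and 0 had an unadjusted p under 0.05 by limma in the ratio, against 9.02% of all probes. Wnt4, a ligand that progesterone induces, changed by 0.39 (standard error 0.54), and Calca, which encodes calcitonin, by -0.49 in the ratio and by 1.21 in Cy5 (standard error 2.84). Areg, the ligand amphiregulin, is named after its values were seen, and its Cy5 was well above background on 6 of the 7 arrays. Its log2 ratio was 4.53, -0.24 and 2.07 in the wild-type animals and 4.33, 3.04, 3.53 and -2.44 in the PRA transgenic animals. Its 2 highest animals were those in which Foxa1 was highest.

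Of the 13 luminal progenitor and alveolar genes, all tested, 0 had an unadjusted p under 0.05 in the ratio by limma, against 9.02% of all probes. In Cy5 there was 1, against 8.89% of all probes. This was Mfge8, the milk fat globule protein gene, with a change of -0.36 (standard error 0.15), named here after its values were seen. The beta-casein gene Csn2 had Cy5 values of 2.31, 5.47 and 8.12 in the wild-type animals and 3.68, 7.22, 3.17 and 5.73 in the PRA transgenic animals. Wild-type replicate 3 and PRA transgenic replicate 2 were the highest animals, as for Elf5 and Ehf. Its log2 fold change was 0.63 in the ratio (standard error 0.74) and -0.35 in Cy5. Lalba, the alpha-lactalbumin gene, had the lowest value of the list in the ratio, -0.96 (standard error 0.68, limma adjusted p = 0.726), and was at -1.76 in Cy5. It did not share the high animals of Csn2. Its Cy5 signal was highest in wild-type replicate 2, at 4.95, and was 4.47 in wild-type replicate 3 and 1.99 in PRA transgenic replicate 2.

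The retinoic acid pathway, which Aldh1a3 feeds, had 10 of 11 genes tested, and 9 had a lower mean in PRA transgenic glands, against 45.8% of all probes, with a median log2 fold change of -0.13. Some of the 9 were close to 0, such as Dhrs3 at -0.01 and Rdh10 at -0.04, named after their values were seen. Cyp26b1, which encodes an enzyme that degrades retinoic acid, was the gene with an unadjusted p under 0.05, against 4.48% of all probes lower at that p, and its log2 ratio was 0.98, 2.53 and 0.42 in the wild-type animals and 0.25, -0.68, -0.44 and 0.61 in the PRA transgenic animals. Wild-type replicate 2 stood above all others. The change was -1.38 (standard error 0.54, adjusted p = 0.524), and -1.56 in Cy5. Aldh1a2, a related enzyme of retinoic acid synthesis, changed by 0.12 (standard error 0.43).

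Of 8 genes of Kit signaling, 1 was higher and 0 lower at an unadjusted p under 0.05, against 4.54% and 4.48% of all probes. This was Pik3r1, a regulatory subunit of phosphoinositide 3-kinase, with log2 ratios of 0.64, 1.28 and 0.23 in the wild-type animals and 1.66, 1.12, 1.58 and 1.90 in the PRA transgenic animals. Only PRA transgenic replicate 2 lay within the wild-type range. The change was 0.85 in the ratio (standard error 0.29, adjusted p = 0.463) and 0.85 in Cy5. Kitl, the ligand of Kit, changed by -0.16 (standard error 0.13). Of the 12 basal epithelium genes 2 had a lower mean in PRA transgenic glands, against 45.8% of all probes, and 1, Tagln, was higher at an unadjusted p under 0.05, against 4.54% of all probes, with a change of 0.39 (standard error 0.15, adjusted p = 0.513). Tagln encodes transgelin, an actin-binding protein of contractile cells. In Cy5 there were 2 basal genes at an unadjusted p under 0.05, against 8.89% of all probes, Tagln with 0.39 and the keratin gene Krt17 with 0.65 (standard error 0.19, adjusted p = 0.445), the latter named after its values were seen.

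Among 18348 other genes, those whose log2 ratio over the 7 arrays was most like the mean standardized profile of the 10 genes were Ubox5 (r = 0.974), Akr1b10 (0.969), Grifin (0.951), Greb1l (0.934) and A930033H14Rik (0.926). These are descriptions of the closest of many profiles over few arrays. The mean profile was highest in wild-type replicate 3 at 0.62 and lowest in PRA transgenic replicate 3 at -0.63. It was closest to Spdef among the 10 genes (r = 0.89) and farthest from Elf5 (r = 0.10), so that no 1 profile stood for all 10 genes.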

How the data were processed

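Agilent 60-mer arrays, 7 in all, measured gland RNA in Cy5 (3 wild-type and 4 PRA transgenic mice, 1 animal per array) against a common reference in Cy3, without dye swap. The intensity values deposited by the authors are the output of Agilent Feature Extraction 12.0 (per the submitters' processing notes), background-subtracted, detrended and dye-normalized within each array, and dim signals hold surrogate values. A second deposited table holds log2 ratios centered on the median of the samples for each probe. It was used as an alternative and followed the ratios computed here (r = 1 on every array).

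Control spots and outlier spots were left out and spots of a probe averaged. Of 56605 probes 34288 were kept and 22317 left out, and 40 values were missing among those kept. Genotypes were compared with limma 3.58.1 (lmFit, eBayes) in R 4.3.3, with Benjamini-Hochberg adjustment over all probes kept. The steps were tested on simulated data. Members were found by the name in the files, and list genes by names updated for 32994 probes through RefSeq accessions of GRCm38.p6. Probe positions are those of the files (mm9).

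The members, the 15 gene lists and the tests were chosen with earlier results of these data known. Named are all 10 genes, the largest rise and fall of each list described and the 5 genes nearest in profile. The brightest gene of a list and the marker genes of the tissue check are named as well, and other genes are said to be named after their values were seen. Alternatives were normexp (offset 50) with loess, the deposited table, other filters, quantile normalization, Cy5 alone, an intensity trend, the methods' t-test, a replicate block, each array left out, the median over probes and scaling to the luminal list. The slide as a block was not run, since there was 1 slide. Proteins were not analysed here.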

Additional observations from a re-analysis of the deposited data

Results flagged for a closer look

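There were 50 groups of 4 PRA transgenic values, 1 for each gene and each list in the log2 ratio and in Cy5. In 6 of them 1 animal lay far from the other 3 by the ratio of its gap to the whole range. Independent groups would give about 2.5 by chance. These groups share the same 4 animals, and the skeletal muscle and fibroblast lists are counted in both scales. The 6 can therefore not be read as an excess. None of the 6 was 1 of the 10 genes. The luminal progenitor and alveolar list had a mean log2 ratio of 3.36 in replicate 3 and of 4.17 to 4.27 in the others (gap over range 0.89). The skeletal muscle list had 2.78 in replicate 4 and -0.59 to -0.39 in the others (0.941), and 1.77 against -2.31 to -2.20 in Cy5 (0.973). The fibroblast list had 2.98 in replicate 4 and 2.49 to 2.51 in the others (0.959), and 5.78 against 5.16 to 5.19 in Cy5 (0.952). The endothelium list had 5.05 in replicate 2 and 5.39 to 5.45 in the others (0.85).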

How the results depend on the processing

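No gene of the 10 reached an adjusted p under 0.05 under any alternative, and the lowest adjusted p was 0.329 (limma; Aldh1a3 without PRA transgenic replicate 4, range of Aldh1a3 up to 0.996). Of 175 gene values under the alternatives, 166 kept their direction and 9 reversed. Gata3 (-0.05) ranged from -0.36 to 0.15 when 1 array was left out, with 0.07 without wild-type replicate 1, 0.15 without wild-type replicate 3, 0.05 without PRA transgenic replicate 1 and 0.10 without PRA transgenic replicate 3, and was 0.11 relative to the luminal list, where every value shifts by 0.15. Foxa1 (0.11) ranged from -0.20 to 0.66, with -0.20 without wild-type replicate 2, -0.12 without wild-type replicate 3 and -0.16 without PRA transgenic replicate 1. The other 8 genes kept their sign when 1 array was left out, with ranges of 0.09 to 0.56 for Elf5, 0.40 to 1.03 for Ehf, -0.54 to -0.10 for Grhl2 (without wild-type replicate 1 and 3), -1.15 to -0.05 for Spdef, -0.31 to -0.07 for Tbx3 (without PRA transgenic replicate 1 and wild-type replicate 1), -1.04 to -0.51 for Kit (lowest without wild-type replicate 1, and -0.51 without wild-type replicate 3 or PRA transgenic replicate 1), -0.84 to -0.28 for Epcam and -1.59 to -0.47 for Aldh1a3. Elf5 was -0.06 with the median over its kept probes, a value that rests on A_66_P110351, which was kept through the wild-type arrays and had Cy3 well above background on none. With normexp and loess Elf5 was 0.03, Ehf 0.32, Foxa1 0.04, Kit -0.35 and Aldh1a3 -0.53. Leaving out 1 array, the median log2 fold change of the 10 genes ranged from -0.36 to -0.06, the count of the 10 genes at an unadjusted p under 0.05 from 0 to 2, and the counts over all probes from 1 to 12 (adjusted) and from 2279 to 4233 (unadjusted). The adjusted count was 2 without wild-type replicate 3, 1 without PRA transgenic replicate 3 and 12 without PRA transgenic replicate 4. Keeping all dim probes, the counts were 15 and 5154, and relative to the luminal list, a scaling chosen after seeing the data, 12 and 1378. The methods' t-test gave 1 adjusted. With the median over probes 2 of the 10 genes (Ehf and Kit) had an unadjusted p under 0.05, against 9.02% of all probes. The cause of these moves was not tested. A filter that asks for signal in both channels on all arrays left 5 of the 10 genes.

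The labels do not say whether the replicate numbers pair the animals. Same-numbered arrays had correlations of 0.10, -0.30 and 0.04 of their deviations from the genotype means, which cannot decide it. With the replicate block 0 probes had an adjusted p under 0.05 by limma, and 2 of the 10 genes (Kit at -1.01 and Aldh1a3 at -1.59) had an unadjusted p under 0.05, against 9.83% of all probes. PRA transgenic replicate 4 has no wild-type array of its number. The log2 fold changes of this fit are therefore those of the fit without that array. The slide block was not run.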

Other observations

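The lists for the other cells of the gland varied by animal. The skeletal muscle list, with Myl1 as its brightest gene, had mean Cy5 values of 0.69, -2.36 and 2.60 in the wild-type animals and -2.20, -2.31, -2.22 and 1.77 in the PRA transgenic animals, high in wild-type replicates 1 and 3 and in PRA transgenic replicate 4. Its 10 tested genes had 0 with an unadjusted p under 0.05 by limma, against 9.02% of all probes, and a median log2 fold change of -1.24, with Myh4 at 0.25 and Mylpf at -2.29 (standard error 1.78). The T cell list was high in wild-type replicate 1, as given above, and its median was -0.57. Il2rb was at 0.02, and the gene with the lowest value was Cd8a, whose Cy5 was well above background on 4 of the 7 arrays and whose Cy3 on 0, so that neither a size nor a call is given. The B cell list, with Cd79b as its brightest gene, had -0.07 in wild-type replicate 1 and -3.13 to -2.51 in the other animals. Ms4a1 had its lowest value in the ratio, -1.42. Pax5 had the highest, with Cy3 well above background on 0 arrays, so that only its change in Cy5, 0.24, is given.

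The remaining lists had medians nearer to 0. Adipocyte genes had a median of 0.20 in the ratio and of -0.03 in Cy5. In the ratio Lipe, the hormone-sensitive lipase, was at 0.42 (limma, adjusted p = 0.493) and Plin4 at -0.42. Fibroblast genes had a median of -0.11, with Dpt at 0.07 and the collagen gene Col3a1 at -0.53 (adjusted p = 0.453). Endothelial genes had a median of 0.16, with Emcn at 0.78 (limma, adjusted p = 0.33), although only 0.36 in Cy5. The Cy3 signal of Emcn was well above background on 1 array. Cdh5 had the lowest value in the ratio, with Cy3 well above background on 0 arrays, so that only its change in Cy5, -0.22, is given. Macrophage genes had a median of 0.07, with Mrc1 at 0.47 and Adgre1 at -0.22. In Cy5 Mrc1 changed by -0.03, and its Cy3 was well above background on 2 of the 7 arrays. Mast cell genes had a median of 0.38 in the ratio and of -0.09 in Cy5. Ms4a2 had the highest value in the ratio, but its Cy3 was well above background on 0 arrays, so that no size is given. In Cy5 Ms4a2 changed by -0.3. Tpsab1, which had Cy5 well above background on 5 of the 7 arrays and Cy3 on 0, was the gene with the lowest value in the ratio. Of the basal list, Snai2 had the largest negative change, -0.23.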
